A study of Rattus norvegicus with 3 samples.

Results

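The cytosolic ribosomal protein genes were followed across 3 expression arrays of rat kidney proximal tubules. They were taken by symbol: every probe set annotated to exactly 1 gene whose symbol begins Rpl or Rps with a digit, is Rplp0 to Rplp2 or is Rpsa, with the S6 kinase genes left out. This gave 57 probe sets of 31099 on the array and 50 genes of 14217 that were named by a probe set of their own. A further 36 probe sets list several genes with such a symbol among them (often together with pseudogene symbols) and were kept out of all gene values. Of the 50 genes, 29 encode standard proteins of the large subunit and 13 of the small subunit. The other 8 carry a paralog or pseudogene symbol: Rpl3l, Rpl7l1, Rpl26l1, Rpl39l1, Rps27l, Rps4y2, Rpl37-ps2 and Rps4x-ps1.

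Tubules came from male Sprague-Dawley rats that were 7 to 8 weeks old, with 1 array for each of 3 preparations. Animals had received 250 units of heparin 30 min before decapitation, the kidneys were perfused with phosphate-buffered saline and collagenase (2 mg/ml), and the cortex was digested for 20 min before the tubules were collected on 42.5% Percoll. All 3 arrays formed 1 group with no untreated or other control tissue. The labels do not say whether the preparations came from separate animals, so the spread between arrays may be technical in part.

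A ribosome is built of a large and a small subunit, in which many different proteins clothe the ribosomal RNA. The small subunit reads the messenger, and the large subunit joins the amino acids and holds the tunnel through which the new chain leaves. Almost every protein is present as a single copy per ribosome, so cells make them in matched amounts. Their messengers begin with a run of pyrimidines, the 5′ terminal oligopyrimidine tract, through which mTOR and the RNA-binding protein Larp1 set how much of them is translated.

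Values are probe-set signals on a linear scale in arbitrary units, given for arrays 1, 2 and 3 in that order. A gene with several probe sets took the one of highest mean signal. Probe sets differ in affinity, so a signal was set beside the same gene on another array or beside the median of an array (37.1, 37.4 and 34.9 over all non-control probe sets), and lists of genes were described by their percentiles. A higher signal of one gene than of another does not show more messenger. In bulk tubules, more cells of a type and more RNA per cell cannot be told apart. As a check of the tissue, 8 of 8 proximal tubule markers exceeded the median of every array, as did 5 of 6 thick ascending limb markers, 5 of 8 distal tubule and collecting duct markers, 4 of 5 endothelial markers, 3 of 6 fibroblast and muscle markers and 0 of 7 white blood cell markers. The share over all named genes was 61.0%, so the distal and fibroblast counts lie near the background. The summed signal of the MHC class II list was 9790, 4687 and 11449, and that of the white blood cell list 98.9, 79.3 and 77.1.

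Standard ribosomal protein genes stood together near the top of the signal scale. Of the 50 genes, 41 exceeded the median of every array (82.0%), against 61.0% of all named genes. Of the 42 standard genes, 38 did so. The same 38 had a mean signal over 1000, which 9.65% of all named genes reached. Their mean signals ran from 2283 to 9966. The median percentile among all named genes was 98.4 for the 29 large subunit genes and 98.3 for the 13 small subunit genes, beside 50 for all genes and 34.3 for the 8 paralogs and pseudogenes. The 57 probe sets made up 0.184% of non-control probe sets and carried 2.20%, 2.22% and 2.16% of the summed signal on the 3 arrays. With the 36 probe sets of several genes added, these shares were 4.0%, 4.04% and 3.98%. They are shares of array signal, which depends on probe affinity, and not shares of messenger molecules.

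**Figure D1:**
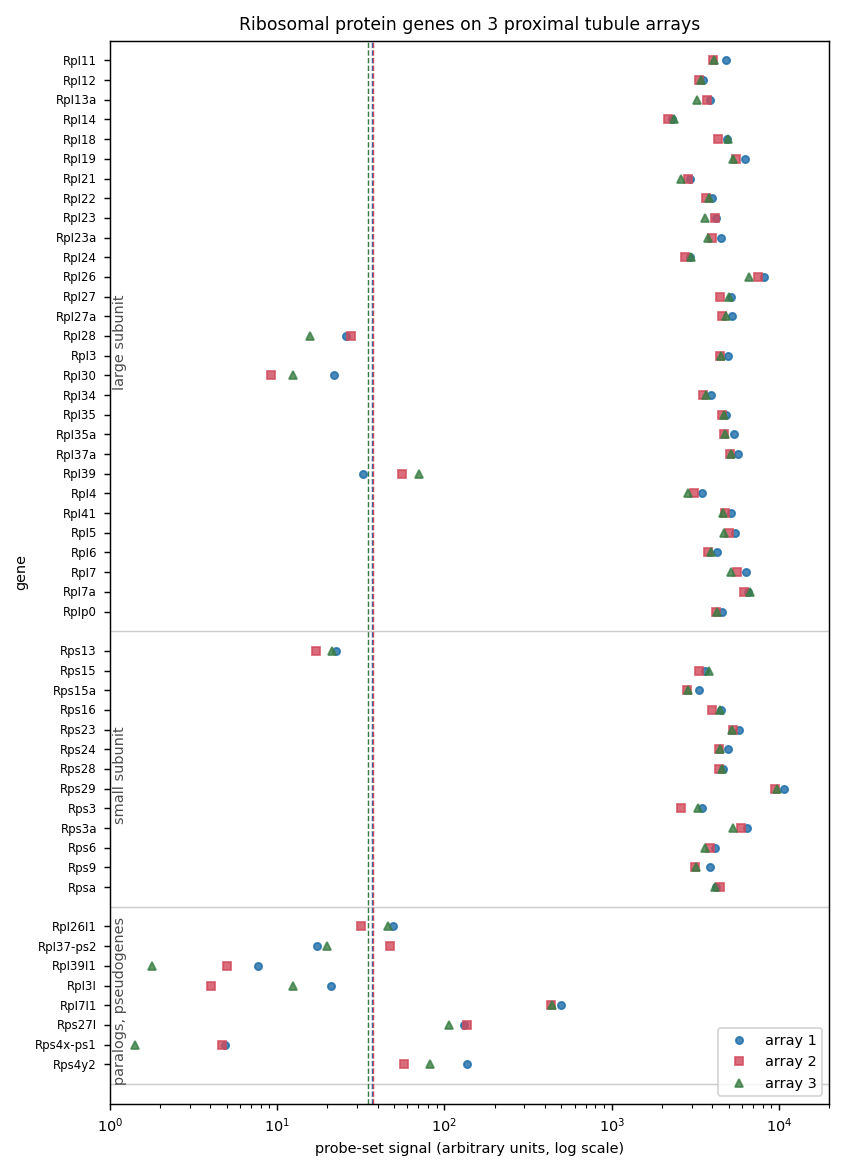
Signal of each of the 50 genes (rows) on arrays 1, 2 and 3 (circles, squares, triangles; log axis), with dashed lines at the array medians of 37.1, 37.4 and 34.9. The standard genes sit in a band from 2283 to 9966 in mean signal apart from Rpl28, Rpl30, Rpl39 and Rps13, and the paralogs and pseudogenes lie at 456 or below.

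In the large subunit, the stalk is the arm that recruits the elongation factors. Rplp0, the protein at its base, gave 4532, 4184 and 4255. Rpl12, which sits beside it, gave 3535, 3335 and 3395. Both signals were a little higher on array 1 than on the others. The acidic stalk proteins Rplp1 and Rplp2 had no probe set of their own here.

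Rpl5 and Rpl11 bind the 5S ribosomal RNA, and when they are free of ribosomes the same pair inhibits Mdm2, the ubiquitin ligase of p53. Rpl5 gave 5477, 5025 and 4686, and Rpl11 gave 4820, 4014 and 4094. Both were highest on array 1. The array also carries a control probe set for the 5S RNA itself, which gave 125, 142 and 104. That RNA has no poly(A) tail, so its signal depends on how the cRNA was primed and was not set against the proteins.

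Around the exit tunnel, Rpl4, whose loop reaches into the tunnel, gave 3459, 3092 and 2843. At the rim, where chaperones and the signal recognition particle dock, Rpl19 gave 6301, 5553 and 5331 and Rpl23a gave 4486, 3979 and 3774. The rim proteins Rpl26 and Rpl35 differed in how steady they were. Rpl26 gave 8179, 7509 and 6593, a standard deviation of 10.7% of its mean, while Rpl35 gave 4825, 4581 and 4660, or 2.65%. Rpl39, a very small protein that lines the lower tunnel, stood apart at 32.9, 56.0 and 70.2, above the array median on arrays 2 and 3 only. It was read by a single probe set.

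Rpl3, which lies close to the peptidyl transferase centre, gave 4989, 4409 and 4499. The other large subunit genes did not share 1 order of the arrays. Rpl7a gave 6540, 6141 and 6676. Rpl14 gave 2304, 2175 and 2372. Both signals were highest on array 3. Rpl41, the smallest protein of the ribosome, gave 5172, 4751 and 4640, highest on array 1. Rpl22 gave 3989, 3649 and 3790, also highest on array 1.

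In the small subunit, Rps23 and Rps15 reach into the decoding centre, where codon and anticodon are checked. Rps23 gave 5745, 5295 and 5257, and Rps15 gave 3613, 3334 and 3828. Rps3, which lines the entry of the messenger, gave 3476, 2590 and 3268. Rps3 had the widest range of the 38 standard genes above the median, 0.43 log2 units, with array 2 as the low one.

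Rpsa, a small subunit protein also known as a laminin receptor, gave 4225, 4436 and 4120. On this probe set, its strongest of 3, the signals lay within a narrow span, with array 2 on top. Rps6, the protein that S6 kinase phosphorylates, gave 4145, 3869 and 3613. Rps29, a zinc-binding protein of the subunit's head, gave 10781, 9419 and 9698. Of 19 genes of the family known from human Diamond-Blackfan anaemia, an inherited failure of red cell production, 11 were measured here. All 11 exceeded the median of every array, against 61.0% of all named genes, with a median percentile of 98.7.

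The 8 paralogs and pseudogenes with a probe set of their own lay far from this band. Rpl3l, which in mouse replaces Rpl3 in heart and skeletal muscle, gave 21.1, 4.03 and 12.5, below the median on every array. Rpl39l1 gave 7.71, 5.02 and 1.80 and Rpl26l1 gave 49.2, 31.8 and 46.1. Rpl26l1 thus crossed the array median between preparations. The pseudogenes Rpl37-ps2 and Rps4x-ps1 gave 17.4, 47.6 and 19.9, and 4.87, 4.66 and 1.42. Some left-out probe sets list only paralog or pseudogene symbols. The one with Rpl22l1, Rpl22l2 and Rpl22l3 gave 3622, 2978 and 2661. That with Rpl37-ps5, Rpl37l1 and Rpl37l4 gave 5380, 4665 and 5251. Another, which lists these with Rpl37l2 and Rpl37l3, gave 17.6, 23.3 and 10.1. Such signals cannot be assigned to 1 gene.

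Of the 8 paralogs and pseudogenes with a probe set of their own, 3 exceeded the median of every array (37.5%), against 61.0% of all named genes. Rpl7l1, a relative of Rpl7, gave 497, 433 and 440. Rps27l, known in human cells as a p53 target, gave 130, 136 and 106. Rps4y2 gave 137, 57.5 and 81.7, with array 1 on top. On the log2(signal + 16) scale, which damps differences between low signals, its range of 1.06 units made it the only one of the 50 genes to reach 1 unit, against 4.46% of all named genes. Several of the lower genes, such as Rpl3l, differed more than 2-fold in signal as printed, and with 1 added in place of 16 the count was 7. Rps4y2 exceeded the array medians, which run over all probe sets, but its mean log2 signal lay under the median of the 14217 named genes. Among genes above that median level, 0 of 40 ribosomal protein genes and 1.39% of all genes had a range of 1 unit. The symbol Rps4y2 recalls a gene of the human Y chromosome, but RefSeq (GRCr8) places the rat gene on chromosome 4.

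Rpl28, Rpl30 and Rps13 were low for standard genes, and for each of them a probe set that was left out bears on the reading. Rpl28 gave 25.8, 27.7 and 15.7, Rpl30 gave 21.97, 9.18 and 12.4, and Rps13 gave 22.5, 17.0 and 21.3, all below the array medians. Each symbol also stands among the several genes of a probe set kept out by the rule. The left-out probe set that lists Rpl28 gave 5052, 4883 and 5335. The 2 that list Rpl30 gave at least 2804, 2696 and 3181, and the one that lists Rps13 gave 4878, 4377 and 4529. Those signals cannot be assigned to 1 gene, and which of the listed transcripts gave them was not tested. Rpl39 stands in no such probe set. Of all 36 left-out probe sets, 35 exceeded the median of every array, against 61.0% of all named genes. A mean over 1000 was reached by 33 of them, against 9.65% of all named genes. Each named gene took its strongest probe set, and a share over other probe sets of several genes was not computed. The left-out probe sets had a median mean signal of 4320, beside 4285 for the 42 standard genes.

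**Figure D2:**
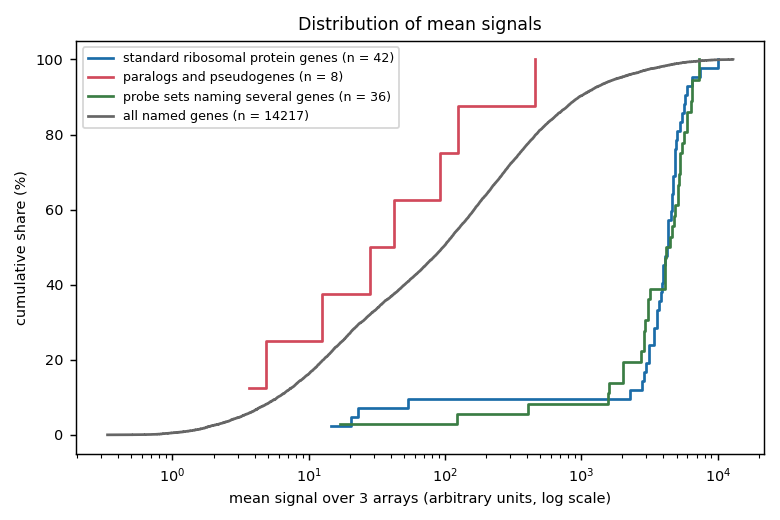
Cumulative share of items (vertical axis, %) by mean signal over 3 arrays (log axis) for 42 standard ribosomal protein genes, 8 paralogs and pseudogenes, 36 probe sets that name several genes, and all 14217 named genes. The curves of the standard genes and of the several-gene probe sets rise together, with median mean signals of 4285 and 4320, far to the right of all genes (96.6).

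Probe sets of the same gene often disagreed. Of the 6 ribosomal protein genes with more than 1 probe set, 5 had probe sets that differed by at least 2 log2 units (4-fold) in mean log2 signal. Over the 4525 named genes with several, the share was 36.9%. That share covers genes of every signal level, whereas the strongest probe set of each of these 5 had a mean of 2283 or more. A share for genes of similar level was not computed. Rpl7 had one probe set at 6307, 5591 and 5155 and another at 19.7, 32.6 and 28.8, a difference of 7.06 log2 units. Rpl14 had a second probe set at 19.9, 5.50 and 19.3, and Rps24 a second one at 88.8, 62.4 and 42.1 beside 4970, 4353 and 4448. A reader of the low probe set alone would place Rpl7 and Rpl14 below the array median. Rps24 would be placed above the median on every array, though far below its other probe set.

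The second probe set of Rpl3 gave 236, 195 and 188, and its identifier carries the suffix for probes shared with other transcripts. Rpsa had 3 probe sets, of which the lowest gave 1062, 976 and 901. The exception was Rpl7l1, whose second probe set gave 490, 412 and 401, with a mean log2 signal 0.072 units from that of the first. Of all 57 probe sets, 51 carry no suffix for shared transcripts. Where within the transcripts these probe sets lie was not analysed here.

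**Figure D3:**
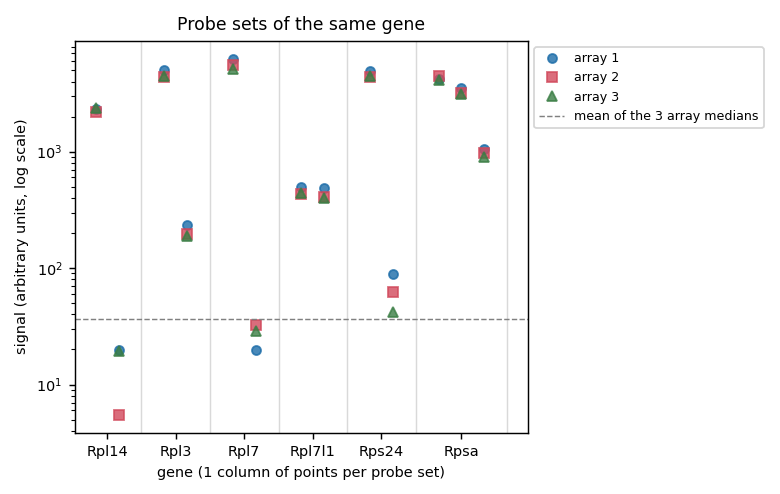
Signals on arrays 1, 2 and 3 (log axis) of every probe set of the 6 genes with more than 1, each probe set as a column of 3 points, with the mean of the array medians as a dashed line. In Rpl14 and Rpl7 the second probe set lies below the median line, and in Rps24 it lies above the line but far under the first. The 2 columns of Rpl7l1 coincide.

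The preparations were then compared on a log2(signal + 16) scale centred on each array's median. The 38 standard genes above the median varied little. Their median standard deviation over the 3 arrays was 0.10 log2 units, beside 0.12 for the 519 other genes of the same signal range (mean signal 2283 to 9966) and 0.15 for all genes above the median level. The median coefficient of variation was 6.99% for the 38 genes and 8.09% for the 519. A lower spread among the 38 was not tested, since the arrays are 1 group.

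Counted separately, array 1 was the highest for most of the 38 and array 2 was the lowest for most. The same held for the other genes of that level. After centring, 27 of the 38 were highest on array 1 (71.1%, against 60.1% of the 519 other genes and 53.1% of genes above the median level). Array 2 was the lowest for 27 of them (71.1%), against 85.4% of the 519. Array 3 was the lowest for 10 (26.3%), against 10.2%. Rpsa alone was highest on array 2 and lowest on array 1 (2.63% of the 38 each), against 2.31% and 4.43% of the 519. This order held for its strongest probe set only: the signals of its other 2 were 3491, 3218 and 3149, and 1062, 976 and 901, highest on array 1. Those 2 carry a suffix for probes shared with other transcripts, and the strongest does not. The 10 genes lowest on array 3 were Rpl4, Rpl5, Rpl7, Rpl13a, Rpl21, Rpl23, Rpl23a, Rpl26, Rps3a and Rps6. Each of these was highest on array 1, so the genes highest on array 1 and those lowest on array 2 overlap only in part. Rps3a, for example, gave 6471, 5930 and 5338, and Rpl13a gave 3844, 3705 and 3246.

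The log2 ratio of array 1 over array 2 had a median of 0.14 in the 38 genes and 0.20 in the 519, with standard deviations across genes of 0.083 and 0.15. Array 2 over array 3 had medians of -0.10 and -0.16, and array 1 over array 3 of 0.08 and 0.03. Large and small subunit genes moved by similar amounts: the median deviation from a gene's own mean was 0.08, -0.07 and 0.0010 in the 26 large subunit genes, and 0.09, -0.10 and -5.2e-05 in the 12 small subunit genes. Each array is a single sample, so none of these shifts has a test.

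The direction of the shift depended on how the arrays were scaled. Quantile normalization, which gives all 3 arrays the same distribution of signals, removed the tilt of strong signals. The 519 other genes then split almost evenly, with 31.0%, 31.0% and 38.0% highest on arrays 1, 2 and 3. The 38 standard genes did not: 22 were highest on array 2 (57.9%) and 24 were lowest on array 3 (63.2%, against 31.6% of the 519), with median deviations of 0.0098, 0.036 and -0.053. On both scales the 38 genes stood lower on array 3 more often than the other genes of their signal range, while they were low on array 2 on the centred scale and not after quantile normalization.

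Control probe sets moved between arrays too. The 18 controls for bacterial and phage transcripts of the bioB, bioC, bioD and cre kind, which are added at hybridisation, had median deviations of 0.12, -0.10 and -0.03. Of these 18, 17 were highest on array 1. The 24 Bacillus controls had median deviations of -0.05, 0.12 and -0.10, and 21 were highest on array 2. For beta-actin the 3′ probe set read 3.85, 3.28 and 3.66 times the 5′ one, a measure of RNA integrity, and for GAPDH 1.52, 1.52 and 1.40 times. Some marker lists of other cells or states moved as well. The summed signal of 6 cell division markers was 2349, 1911 and 1595, with median deviations of 0.32, 0.10 and -0.44. That of 5 endothelial markers was 597, 774 and 1060, with median deviations of -0.29, -0.075 and 0.45, and the MHC class II sum given above was lowest on array 2. The part of hybridisation, of RNA integrity or of these marker lists in the shifts of the ribosomal protein genes was not tested.

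**Figure D4:**
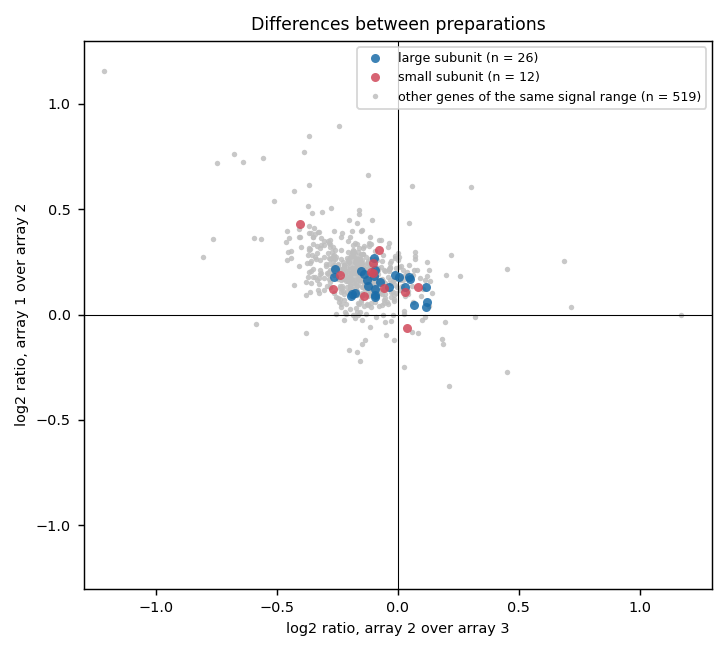
Log2 ratio of array 1 over array 2 (vertical) against array 2 over array 3 (horizontal) on the centred scale for 26 large and 12 small subunit genes and 519 other genes of the same signal range. Array 2 enters both axes, so the points fall along a slope by construction. The ribosomal protein genes lie inside the grey cloud, around 0.14 and -0.10, and Rps3 stands at 0.43 on the vertical axis.

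The annotated starts of the genes were examined next for the oligopyrimidine tract, a feature the symbols do not use. RefSeq start windows of the GRCr8 assembly, from 250 bases before to 50 after the annotated start, matched 43 of the 50 genes by symbol. A tract was counted when the first base of the transcript was C and the next 4 were each C or T, on the transcript's strand. A gene with several starts counted when any held it. The tract stood at the annotated start of 12 of 37 standard genes (32.4%) and of 0 of 6 paralogs, against 2.98% of the 11734 genes on the array that had a window. When the tract could begin up to 5 bases to either side of the annotated start, 21 of 37 standard genes (56.8%) and 1 of 6 paralogs (Rps4y2) held it, against 18.4%. Here a C inside a longer run of C and T also counted as a beginning. With at least 6 bases of C or T after the C, the shares were 16.2% and 1.18%.

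The printed windows run from 25 bases before the annotated start to 20 from it, 5′ to 3′, with a tract at the exact start in capitals. The first 7 are shown as examples with the tract exactly at the start, among them the stalk protein Rplp0 and the low-signal genes Rpl28 and Rpl39. Rps24 counted only when the tract could begin within 5 bases. Its run of C and T, left in lower case, starts further upstream than that and crosses the annotated start. The last 3 are paralogs without a tract.
Rpl19 (chr10:83519039-83519083, plus strand): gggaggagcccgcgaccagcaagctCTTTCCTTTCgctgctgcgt
Rpl37a (chr9:81748066-81748110, plus strand): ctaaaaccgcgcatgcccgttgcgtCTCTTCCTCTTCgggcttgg
Rpl35a (chr11:81235002-81235046, minus strand): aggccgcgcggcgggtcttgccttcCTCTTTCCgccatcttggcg
Rps15 (chr7:10068096-10068140, minus strand): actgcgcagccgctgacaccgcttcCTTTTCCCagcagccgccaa
Rplp0 (chr12:46718371-46718415, minus strand): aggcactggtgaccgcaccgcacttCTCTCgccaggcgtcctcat
Rpl28 (chr1:78083513-78083557, minus strand): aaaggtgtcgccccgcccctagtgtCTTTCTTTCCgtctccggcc
Rpl39 (chrX:121195877-121195921, minus strand): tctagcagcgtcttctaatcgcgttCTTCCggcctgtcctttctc
Rps24 (chr16:96492-96536, plus strand): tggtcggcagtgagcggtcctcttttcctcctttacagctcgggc
Rpl3l (chr10:14258421-14258465, plus strand): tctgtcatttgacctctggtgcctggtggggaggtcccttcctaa
Rpl26l1 (chr10:17029009-17029053, minus strand): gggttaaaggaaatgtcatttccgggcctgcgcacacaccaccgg
Rps27l (chr8:76443633-76443677, plus strand): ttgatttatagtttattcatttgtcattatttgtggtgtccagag

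Tracts that began exactly at the start were 5 to 12 bases long, with a median of 7. In the 20 bases around the start, 10 to each side, C and T made up a median of 75% in standard genes and 50% in all genes on the array with a window. No match says only that these letters do not stand at the annotated base. Of the 4 standard genes with low signal, Rpl28 and Rpl39 held the tract at the exact start and Rps13 within 5 bases of it, while Rpl30 had no window. The tract was therefore present in genes whose single-gene probe set read low.

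Other short motifs were searched on both strands of the whole window. The ETS factor core CCGGAAG was found in 21.6% of the 37 standard genes and 15.4% of genes on the array with a window. The YY1 core AAGATGGC was found in 10.8% of the standard genes and 4.88% of genes on the array. The TATA box, searched by the letters TATAAA, was found in 10.8% of the standard genes and 9.08% of genes on the array. These matches are descriptions of letters and not of binding.

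Other genes of translation were read from lists of its factors and regulators. Of 3 ribosomal proteins with a symbol outside the pattern, only Rack1, the scaffold protein on the head of the small subunit, was measured, at 3790, 3253 and 3601. All 31 measured initiation factors exceeded the median of every array, against 61.0% of all named genes, with a median percentile of 87.4. They included Eif4g2 (5755, 5297 and 5250), Eif4a2, an RNA helicase of the cap complex (3453, 3256 and 3140), and Eif3m (2430, 2263 and 1930), with Eif2b3, a subunit of the exchange factor for Eif2, at 125, 80.9 and 69.0.

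Of 13 elongation and termination genes, 10 exceeded the median of every array, against 61.0% of all named genes, with a median percentile of 91.5. Eef1a1, which brings aminoacyl-tRNA to the ribosome, gave 7638, 7330 and 7068. The other 3 were Eef1a2, the form of muscle and brain (15.3, 3.12 and 25.7), Eef2k, the kinase that inhibits Eef2 (9.32, 18.4 and 14.0), and Eif5a2 (18.96, 27.6 and 25.05). Eif5a, the general form, gave 2911, 2613 and 2931, and Eef1b2 gave 3119, 2703 and 2438.

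Genes of ribosome assembly and RNA polymerase I had a median percentile of 62.6. Of them, 42 of 43 exceeded the median of every array, against 61.0% of all named genes. Nop10, a small protein of box H/ACA particles, gave 2173, 1816 and 1893. Ncl, the gene of nucleolin, gave 1575, 1377 and 1397, and Utp4 gave 1129, 1156 and 1305. Taf1b, a subunit of the polymerase I initiation factor, was the one below, at 12.1, 22.1 and 27.2.

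In the list of mTOR and S6 kinase signalling, 18 of 21 genes exceeded the median of every array, against 61.0% of all named genes. The median percentile of this list was 70.3. Rheb, the GTPase that switches mTOR on, gave 2027, 1843 and 1835. Eif4ebp2, an inhibitor of cap binding, gave 1546, 1356 and 1486, and Pdpk1 gave 1178, 1045 and 1068. The 3 that did not were the kinase gene Rps6ka2 and the transcription factor genes Myc and Mycn, named because they are few. Mycn gave 10.8, 14.5 and 1.59, Myc gave 41.2, 31.2 and 33.8, and Rps6ka2 gave 43.8, 48.3 and 23.9. Of other proteins known for the oligopyrimidine tract, 12 messengers were measured, most of which also stand in the lists above. All 12 exceeded the median of every array, against 61.0% of all named genes, with a median percentile of 95.7.

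**Figure D5:**
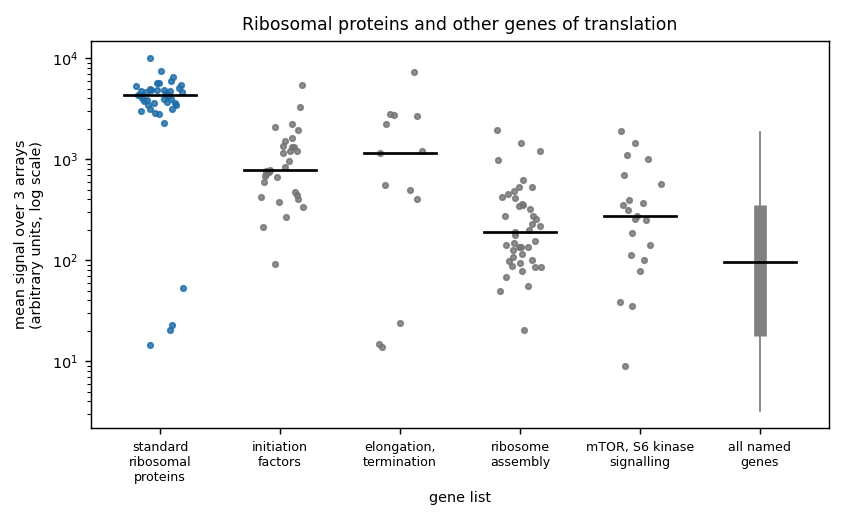
Mean signal over 3 arrays (log axis) of each gene in the standard ribosomal protein set and in 4 lists of translation genes, with bars at the medians; for all 14217 named genes the thick bar spans the middle 50% and the thin line the 5th to 95th percentile. The ribosomal proteins form a narrow band around a median of 4285 apart from Rpl28, Rpl30, Rpl39 and Rps13, which lie far to its low side. The medians of the lists are 1154 for elongation and termination, 782 for initiation, 276 for signalling and 189 for assembly, in signal that also depends on probe affinity.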

How the data were processed

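Biotin-labelled cRNA of 3 proximal tubule preparations was hybridised to 1 array each, and the authors deposited linear intensities, 1 for each probe set. The summarisation software and the scaling between arrays are not given in the sources used here. Of non-control probe sets, 20826 named 1 gene, 436 several and 9780 none in the platform annotation; 57 were controls. Of the 50 member genes, 48 had their gene identifier in a RefSeq table (GRCr8). Each gene took its probe set of highest mean signal. Variation was computed on log2(signal + 16) centred on each array's median. With 1 group of 3 arrays no difference was tested, and the number of arrays limits the precision. Members and lists were chosen with earlier results of these data known. All members could be named. Values were given for paralogs, low members, the 6 widest ranges, the 6 genes with several probe sets, and role lists other than the Diamond-Blackfan genes. In the initiation, elongation, assembly and signalling lists, values were given for the 3 highest, the lowest and the few below the median. Genes named beyond this were chosen after their values were seen. The 3 motifs other than the tract, and the counts of array order after quantile normalization, were chosen after the data were seen. Alternatives were probe set averaging, probe sets without suffix, pseudocounts, quantile normalization, no centring, other signal lines, a filter on low values and leaving out arrays. Protein sequences were not used here. Calculations used Python 3.11.15, pandas 2.3.3 and numpy 2.4.6.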

Additional observations from a re-analysis of the deposited data

How the results depend on the processing

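Of 87 recomputed values, 71 moved by less than the spread between arrays (for counts, by less than 1.5 times). The count of genes above the median of every array was 41 of 50, and 42 without array 1 or without array 2. It was 40 of 48 with only probe sets without suffix and 38 of 42 without paralogs and pseudogenes. A line at the 25th or 75th percentile in place of the median gave 46 or 39. The median deviations on arrays 1 and 3 moved by less than the spread (0.11) under every setting run. That spread is wider than these deviations (0.08 and -0.0027), so it cannot show that they were steady. Array 1 stood at 0.021 after quantile normalization. Array 3, close to 0, changed sign under a pseudocount of 1 and without array 1. The median percentile of all 50 genes (98.2) was 98.4 without paralogs and pseudogenes and 97.8 without the lowest 20% of genes. The median deviation on array 2 (-0.08) was 0.032 after quantile normalization. The count of genes with a range of 1 unit on the log2(signal + 16) scale (1, Rps4y2) was 7 with a pseudocount of 1, which widens low signals. It was 0 with a pseudocount of 64, after quantile normalization and without paralogs, and 0 to 1 when 1 array was left out, being 0 without array 1 or without array 2. Genes whose probe sets differed by 4-fold numbered 5, and 3 when only probe sets above the array median were kept, which left 4 genes. The tract, found at the exact start of 12 genes, was found in 22 within 5 bases and in 6 with the longer run. Low signals near the array median limit what can be said of the paralogs. No paired analysis was possible because all 3 arrays form 1 group.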
